A study of Mus musculus with 12 samples.

Results

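The miR-181 family comprises the mature arms of 6 mouse hairpins, Mir181a-1, Mir181a-2, Mir181b-1, Mir181b-2, Mir181c and Mir181d. Its members were taken by name from the deposited count table, which gave 10 of 1966 mature miRNAs, namely the 4 guide (5p) arms of miR-181a to miR-181d and 6 passenger (3p) arms. All 10 passed the filter on low counts and were among the 809 miRNAs tested. They were followed by small RNA sequencing of quadriceps taken from C57BL/6J wild types on postnatal days 1, 5, 14 and 90 (P1, P5, P14 and P90), the last of these being adult. As far as the labels say, the groups differed only by age. Each age was represented by 3 libraries, 12 in all, and the question put to them was how miRNA levels change while the muscle matures. The study's methods give 3 mice per age, while the labels do not tie each library to an animal.

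A miRNA hairpin is cut to a short duplex, of which the guide strand is usually loaded into an Argonaute protein and the passenger strand is mostly discarded. A loaded miRNA recognizes its targets mainly through the seed, a stretch near its 5′ end. The miR-181 family is best known from lymphocytes, where miR-181a tunes the sensitivity of the T cell receptor, and in skeletal muscle it has been described in differentiating myoblasts, where it represses the homeobox protein Hox-A11.

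The guide sequences are shown because they carry the same seed, so that the guides can be told apart only by the bases outside it. Capitals mark the seed, bases 2 to 8 counted from the 5′ end, and the sequences are those of RefSeq on GRCm38.p6.
mmu-miR-181a-5p: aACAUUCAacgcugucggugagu
mmu-miR-181b-5p: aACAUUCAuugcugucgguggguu
mmu-miR-181c-5p: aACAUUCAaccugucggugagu
mmu-miR-181d-5p: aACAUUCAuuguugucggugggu
All 4 guides shared the seed ACAUUCA, and no other mature miRNA with a sequence in the RefSeq table had it. With positions counted from 1 at the 5′ end of the first arm named, miR-181a-5p and miR-181b-5p differed by A9U, C10U and A21G, and miR-181b-5p and miR-181d-5p by C12U, in each case beside 1 base at the end. MiR-181c-5p differed from miR-181a-5p by no substitution and 1 internal gap. The guide of miR-181a is encoded identically by 2 hairpins, at chr1:137966468-137966490 and chr2:38852741-38852763, and so is that of miR-181b, at chr1:137966650-137966673 and chr2:38853845-38853868, all on the plus strand. Their counts therefore pool both loci.

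The passenger arms are shown because they do separate the loci. Capitals again mark bases 2 to 8.
mmu-miR-181a-1-3p: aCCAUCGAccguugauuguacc
mmu-miR-181a-2-3p: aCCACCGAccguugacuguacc
mmu-miR-181b-1-3p: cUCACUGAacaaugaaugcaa
mmu-miR-181b-2-3p: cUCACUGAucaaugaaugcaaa
mmu-miR-181c-3p: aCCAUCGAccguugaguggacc
mmu-miR-181d-3p: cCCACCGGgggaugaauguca
The passengers of the miR-181a hairpins, miR-181a-1-3p and miR-181a-2-3p, differed by U5C and U16C, and the first of these lies in the seed. Those of the miR-181b hairpins, miR-181b-1-3p and miR-181b-2-3p, differed by A9U beside 1 base at the end, so that they shared the seed UCACUGA and a read that lacks position 9 would match both. MiR-181a-1-3p and miR-181c-3p shared the seed CCAUCGA and differed by U16G and U19G. The passenger positions were chr1:137966508-137966529 and chr1:137966690-137966710 for miR-181a-1-3p and miR-181b-1-3p, and chr2:38852785-38852806 and chr2:38853883-38853904 for miR-181a-2-3p and miR-181b-2-3p, all on the plus strand. MiR-181c-3p and miR-181d-3p lie on the minus strand at chr8:84178885-84178906 and chr8:84178720-84178740.

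The 6 hairpins form 3 pairs. Mir181a-1 and Mir181b-1 are 97 bp apart on chromosome 1, Mir181a-2 and Mir181b-2 are 1019 bp apart on chromosome 2, and Mir181c and Mir181d are 85 bp apart on chromosome 8. In the GENCODE vM39 annotation the chromosome 1 pair lies in an exon of the long noncoding RNA gene Mir181a-1hg. The chromosome 2 pair lies in an intron of the long noncoding RNA gene Nr6a1os and, on the opposite strand, in an intron of the nuclear receptor gene Nr6a1. The chromosome 8 pair lies in an intron of Nanos3, a gene of germ cell development, on the same strand, whereas RefSeq on GRCm38.p6 places both hairpins outside that gene. No other annotated miRNA hairpin overlapped any of the 6. The 2 hairpins of miR-181a are given with the passenger arm in capitals, because the levels of these arms moved apart with age.
Mir181a-1, chr1:137966455-137966541, plus strand: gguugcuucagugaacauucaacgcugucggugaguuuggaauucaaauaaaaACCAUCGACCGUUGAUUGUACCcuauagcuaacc
Mir181a-2, chr2:38852735-38852810, plus strand: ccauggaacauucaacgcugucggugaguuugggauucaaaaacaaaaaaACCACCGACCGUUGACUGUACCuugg

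The depth was between 25472336 and 26783448 counts per library at P1, between 30648679 and 33771032 at P5, between 20363495 and 24046074 at P14, and between 43776307 and 53126984 in the adult. MiR-1a-3p, the most abundant muscle miRNA, took 22.2 to 26.8% of the counts at P1 and 53.0 to 56.8% at P90, and the TMM scaling factors were 0.247 to 0.384 at P90 against 1.24 to 1.72 at the other ages. Levels are given as normalized CPM, that is, CPM computed on the TMM-scaled size of a library, and changes as log2 fold changes (log2FC) with their standard error (SE). The median log2FC of all 809 miRNAs was -0.72 for P90 versus P1 and moved to -2.97 with library totals, -0.37 with RLE factors and 1.18 with upper-quartile factors. P90 values are therefore also given relative to that median and as ratios within a library. A change of scaling shifts all log2FC nearly alike, so the relative values agree between scalings by construction. With miRNAs at the floor set to their bounds, the TMM median for P90 versus P1 was -0.44. Since a small RNA ligation captures some sequences better than others, levels of different arms, all of 21 to 24 nt, were set side by side as counts or normalized CPM with no correction for capture or length.

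The family as a whole took 0.385% ± 0.0653 (SD, n = 3) of all counts at P1, then 0.333% ± 0.0616 at P5, 0.616% ± 0.0738 at P14 and 0.101% ± 0.0241 at P90. Whether the adult was above or below P1 depended on the scaling, since the members together had 2432 ± 235 normalized CPM at P1, 3979 ± 188 at P14 and 3060 ± 194 at P90. Under both scales P14 was above P1, and it was also above P1 with RLE and upper-quartile factors. Whether P14 was also above P90 depended on the scaling. With RLE factors the family means were 3674 CPM at P14 and 3635 CPM at P90, and the libraries of these ages overlapped. With upper-quartile factors the means were 3361 CPM at P14 and 7688 CPM at P90. Differences between ages were tested with edgeR. Of the 10 members, 9 differed between the 4 ages at a Benjamini-Hochberg adjusted P value (Padj) under 0.05, where 72.4% of all miRNAs tested did. Between P1 and P5, 0 of the 10 were called by edgeR or by DESeq2 and 0 had an unadjusted P value under 0.05, against 4.45% of all miRNAs called (2.72% higher and 1.73% lower). Between P5 and P14, 5 of 10 were called, 2 higher and 3 lower (44.4% of all miRNAs, 18% higher and 26.3% lower). Between P14 and P90, 8 were called, 2 higher and 6 lower (59.1%, 22.4% higher and 36.7% lower). Between P1 and P90, 9 were called, 3 higher and 6 lower (66.4%, 25.2% higher and 41.2% lower). The median log2FC of the 10 members for P90 versus P1 was -2.06, or -1.74 with miR-181d-3p set to its bound, compared with -0.72 for all miRNAs, or -0.44 with those at the floor set to their bounds. With the arms apart, the median was -1.07 for the guides and -2.41 for the passengers, or -1.74 for the passengers with that bound. These comparisons share libraries, so that their values are not independent of each other.

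MiR-181a-5p was the most abundant member in every library and reached its highest level at P14. Its normalized CPM were 1550, 1878 and 1493 at P1 and 1544, 1727 and 2155 at P5. At P14 they were 2883, 3216 and 3271, and at P90 2219, 1947 and 2044. The P14 libraries lay above all others, and the P90 libraries lay above those of P1. From P5 to P14 the level rose by a log2FC of 0.79 (SE 0.14, edgeR Padj = 3.5e-04). For P90 versus P14 it was -0.59 (SE 0.14, Padj = 0.00203), but 0.98 with upper-quartile factors, and the call was lost with RLE factors, at -0.23 (Padj = 0.152), with DESeq2 (Padj = 0.165) and with a filter of 10 CPM (-0.23). For P90 versus P1 the log2FC was 0.34 (SE 0.14, edgeR Padj = 0.0487), and it ran from -1.93 with library totals to 2.22 with upper-quartile factors. Relative to the median of all miRNAs it was 1.04 to 1.05 under the 4 scalings. The P90 versus P1 call was also lost with no filter on low counts (Padj = 0.146), with replicate number as a block (Padj = 0.0600) and on leaving out replicate 1 or 3 of P1 or any single library of P14 or P90, with log2FC between 0.25 and 0.36.

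MiR-181b-5p, the second guide in abundance, lay within a narrower range. It was at 513, 558 and 521 normalized CPM at P1, 501, 470 and 577 at P5, 593, 587 and 559 at P14 and 648, 582 and 689 at P90. The P90 libraries lay above those of P1 without overlap, while P14 overlapped with both P5 and P90. The difference between the 4 ages did not pass the test (edgeR Padj = 0.121), but with library totals or DESeq2 all 10 members passed, miR-181b-5p included. From P5 to P14 it passed with upper-quartile factors (0.46, Padj = 0.00587) and with a filter of 10 CPM (0.28, Padj = 0.0240). For P90 versus P1 the log2FC was 0.27 (SE 0.13, Padj = 0.0697), which lay at -2.01 with library totals and passed the test with RLE factors at 0.61 (Padj = 2.8e-04), with upper-quartile factors at 2.15, with DESeq2 at 0.61, with a filter of 10 CPM at 0.78 and with only those ages at 0.44. For P90 versus P14 the log2FC was 0.14 (Padj = 0.343), and from -2.11 to 1.71 under the 4 scalings. Relative to the median of all miRNAs, P90 versus P1 was 0.96 to 0.99 under the 4 scalings. Without replicate 2 of P5 the P90 versus P1 value was 0.50 (Padj = 0.00320), and without replicate 2 of P90 0.31 (Padj = 0.0374).

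The guides from chromosome 8 were lower in the adult under each of the 4 scalings, by an amount that depended on the scaling. MiR-181c-5p was at 109, 118 and 113 normalized CPM at P1, 99.7, 122 and 158 at P5, 125, 104 and 129 at P14 and 23.0, 21.1 and 20.2 at P90. Every P90 library lay below every younger one, and the 3 younger ages overlapped. The log2FC was -2.40 for P90 versus P1 (SE 0.18, edgeR Padj = 5.8e-09) and -2.47 for P90 versus P14 (SE 0.18, Padj = 5.9e-09), and both stayed negative and past the test in all settings tried. With upper-quartile factors they were -0.51 (Padj = 0.0126) and -0.90, and with library totals -4.66 and -4.69. Relative to the median of all miRNAs, P90 versus P1 was -1.69 under each of the 4 scalings.

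MiR-181d-5p moved earlier. It was at 92.0, 92.0 and 93.2 normalized CPM at P1, 85.0, 91.6 and 113 at P5, 66.1, 52.5 and 57.3 at P14 and 13.14, 9.92 and 17.4 at P90. The P14 libraries lay below those of P1 and P5, and the P90 libraries below those of P14. The step from P5 to P14 had a log2FC of -0.72 (SE 0.19, edgeR Padj = 0.00631), which was -0.45 with library totals (Padj = 0.0751) and -0.43 with upper-quartile factors (Padj = 0.0522). From P14 to P90 it was -2.13 (SE 0.20, Padj = 1.5e-07) and from P1 to P90 -2.78 (SE 0.21, Padj = 5.1e-09). Both passed under the 4 scalings, the first from -4.40 with library totals to -0.57 with upper-quartile factors and the second from -5.09 to -0.91.

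**Figure D1:**
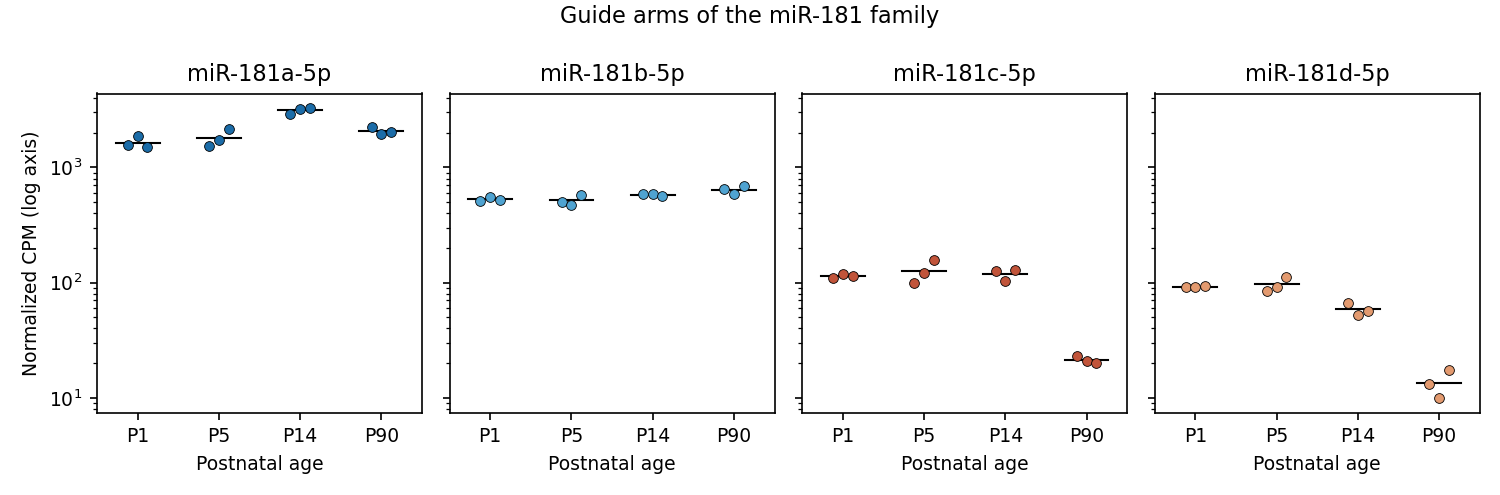
Normalized CPM (log axis) of the 4 guide arms in each library by postnatal age, with 1 point per library and a bar at the mean of 3. MiR-181a-5p is highest at P14, at a mean of 3123, but with upper-quartile factors its log2FC of P90 versus P14 is 0.98. MiR-181c-5p and miR-181d-5p drop to means of 21.4 and 13.5 at P90. With library totals in place of TMM, miR-181a-5p and miR-181b-5p are lower at P90 than at P1.

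Ratios of 2 guides within a library do not depend on the scaling. They were compared between the 4 ages by an exact permutation test over all 15400 partitions of the 12 libraries, with P values adjusted over the 9 ratios computed in the family. This test takes all 4 ages at once, so its P value is not that of P90 versus P1. In counts, miR-181a-5p exceeded miR-181c-5p by a geometric mean of 14.4 times at P1, then 14.4 times at P5, 26.3 times at P14 and 96.4 times at P90. The ratio was 6.70-fold higher at P90 than at P1, with no overlap (exact permutation between the 4 ages, P = 6.5e-04, adjusted 0.00117). MiR-181b-5p exceeded miR-181d-5p 5.74 times at P1 and 48.5 times at P90 (exact permutation between the 4 ages, P = 1.9e-04, adjusted 8.8e-04).

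The other ratios of guides covered a smaller range. The ratio of miR-181a-5p to miR-181b-5p had geometric means of 3.08, 3.49, 5.38 and 3.24 at P1, P5, P14 and P90 (exact permutation P = 0.00474, adjusted 0.00711), so that it stood apart at P14 and overlapped between P1 and P90. The ratio of miR-181c-5p to miR-181d-5p was 1.23, 1.30, 2.03 and 1.63 (exact permutation P = 0.0379, adjusted 0.0427), and with replicate number as a block the adjusted P value was 0.0664. As a share of the guide counts, both chromosome 8 guides together held 8.70% ± 0.689 (SD, n = 3) at P1, then 8.73% ± 0.388 at P5, 4.60% ± 0.635 at P14 and 1.27% ± 0.0777 at P90. Of the guide counts, miR-181a-5p held 68.9% ± 1.89 at P1 and 75.4% ± 1.43 at P90, and miR-181b-5p 22.4% ± 1.20 and 23.3% ± 1.36.

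Among the passengers, miR-181a-2-3p of chromosome 2 rose at both P14 and P90. It was at 23.1, 23.1 and 22.6 normalized CPM at P1, 28.0, 20.8 and 20.8 at P5, 62.9, 72.5 and 71.0 at P14 and 326, 284 and 308 at P90. The P14 libraries lay above all of P1 and P5, and the P90 libraries above all of P14. The log2FC was 1.57 for P14 versus P5 (SE 0.15, edgeR Padj = 1.0e-06) and 3.74 for P90 versus P1 (SE 0.17, Padj = 8.2e-12), a 13.4-fold difference. P90 versus P1 remained positive under the 4 scalings, from 1.48 with library totals to 5.62 with upper-quartile factors, and was 4.45 relative to the median of all miRNAs. For P90 versus P14 the log2FC was 2.15 (SE 0.16, Padj = 5.4e-09), but -0.08 with library totals, where the unscaled level was 107 ± 16.12 CPM (SD, n = 3) at P14 and 101 ± 24.7 CPM at P90.

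Its counterpart on chromosome 1, miR-181a-1-3p, went the other way. It was at 13.9, 15.8 and 16.7 normalized CPM at P1, 12.9, 14.3 and 15.7 at P5, 22.6, 18.06 and 14.3 at P14 and 5.89, 3.92 and 4.25 at P90. Only the P90 libraries stood apart, below all others. The log2FC was -1.72 for P90 versus P1 (SE 0.22, edgeR Padj = 4.1e-06) and -1.97 for P90 versus P14 (SE 0.22, Padj = 1.2e-06). With upper-quartile factors the first was 0.17 (Padj = 0.5004) and the second -0.39 (Padj = 0.143), with library totals they were -3.97 and -4.19, while relative to the median of all miRNAs the first was -1.01 to -0.997 under the 4 scalings.

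In counts, miR-181a-2-3p made up 59.7% ± 2.45 (SD, n = 3) of both miR-181a passengers at P1, then 61.6% ± 6.02 at P5, 78.9% ± 4.93 at P14 and 98.5% ± 0.237 at P90. Shares at P14 lay above those of P1 and P5, and those of P90 above all. The ratio of miR-181a-1-3p to miR-181a-2-3p changed 44.3-fold between P1 and P90 (exact permutation between the 4 ages, P = 5.8e-04, adjusted 0.00117). This comparison needs no scaling, and each arm comes from 1 annotated locus. How reads too short to tell such an arm from another were counted is unknown. The difference of U5C puts 1 more G or C in miR-181a-2-3p, as does U16C, and the GC content was 59.1% against 50%. With the GC trend removed, the log2FC of P90 versus P1 was 4.25 for miR-181a-2-3p and -1.62 for miR-181a-1-3p.

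The passengers of miR-181b were scarce and followed another course. MiR-181b-1-3p of chromosome 1 was counted 205, 281 and 305 times at P1, 145, 228 and 185 times at P5, 64, 10 and 26 times at P14 and 8, 12 and 6 times at P90. In normalized CPM the ranges were 5.43 to 7.26, 3.71 to 5.47, 0.246 to 1.76 and 0.476 to 0.636 in the same order. The libraries of P14 and P90 lay below those of P1 and P5, and P14 and P90 overlapped. The log2FC was -2.20 for P14 versus P5 (SE 0.46, edgeR Padj = 0.00117), -3.55 for P90 versus P1 (SE 0.53, Padj = 1.9e-05) and -0.83 for P90 versus P14 (SE 0.54, Padj = 0.200), and the second passed the test under the 4 scalings, from -5.80 to -1.66. The last became -1.29 (Padj = 0.00977) without replicate 2 of P14, -3.01 (Padj = 7.0e-05) with library totals, -1.63 (Padj = 0.0137) with the GC trend removed and 0.74 (Padj = 0.250) with upper-quartile factors.

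MiR-181b-2-3p of chromosome 2 dipped at P14 and was highest at P90. Its counts were 30, 22 and 40 at P1, 48, 29 and 24 at P5, 3, 2 and 6 at P14 and 19, 44 and 45 at P90. In normalized CPM the ranges were, by rising age, 0.508 to 0.953, 0.542 to 1.23, 0.0493 to 0.210 and 1.13 to 3.75. All P14 libraries lay below all others, and the P90 libraries lay above those of P1, while P5 and P90 overlapped. The log2FC was -2.88 for P14 versus P5 (SE 0.66, edgeR Padj = 0.00242) and 4.41 for P90 versus P14 (SE 0.68, Padj = 3.8e-05), the latter from 2.12 to 5.96 under the 4 scalings. For P90 versus P1 it was 1.66 (SE 0.57, Padj = 0.0171), with values of -0.68 under library totals and 3.52 with upper-quartile factors, and the call was lost without replicate 2 of P1 (1.40, Padj = 0.0744), without replicate 3 of P90 (1.22, Padj = 0.109) and with a GC trend removed (1.14, Padj = 0.0800).

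Of both miR-181b passengers, miR-181b-2-3p held 10.5% ± 2.90 (SD, n = 3) at P1, then 15.9% ± 7.79 at P5, 13.3% ± 7.71 at P14 and 79.1% ± 8.94 at P90. Those of P90 lay above all others, and the 3 younger ages overlapped. The ratio of miR-181b-1-3p to miR-181b-2-3p changed 33.1-fold between P1 and P90 (exact permutation P = 0.0128, adjusted 0.0164), and with replicate number as a block the adjusted P value was 0.0625. Thus for both names the chromosome 2 arm held the larger part of the passenger counts at P90, whereas at P1 it did so for miR-181a alone.

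**Figure D2:**
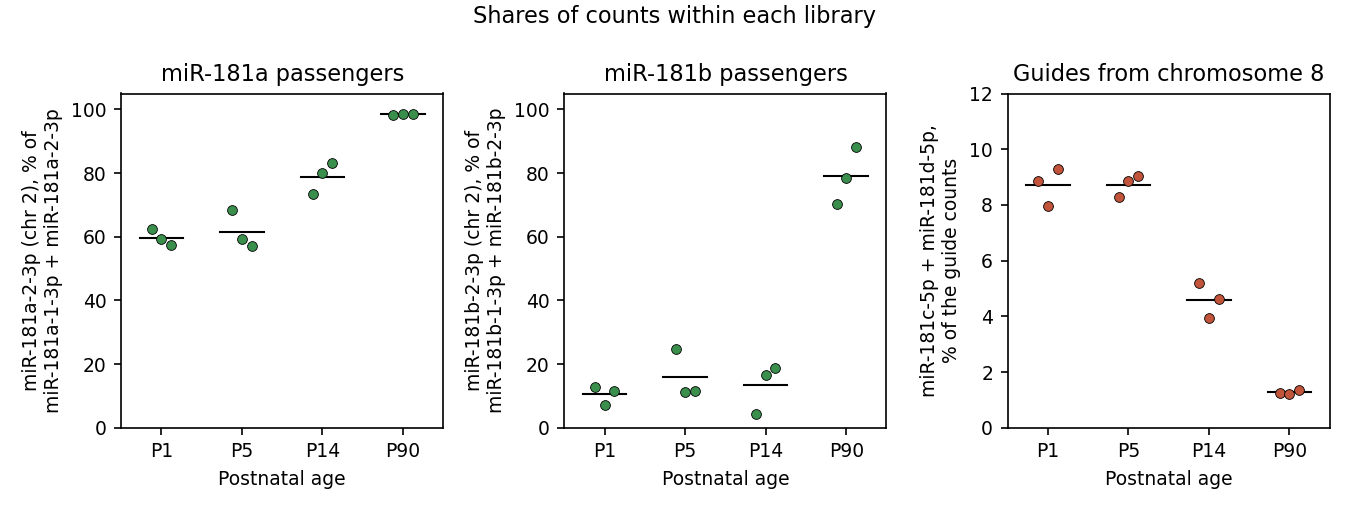
Shares of counts within each library by postnatal age, with 1 point per library and a bar at the mean of 3: miR-181a-2-3p among both miR-181a passengers, miR-181b-2-3p among both miR-181b passengers, and miR-181c-5p plus miR-181d-5p among the guides. At P90 the chromosome 2 arms reach means of 98.5% and 79.1% and the chromosome 8 guides fall to 1.27%.

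On chromosomes 1 and 2, passengers of 1 locus pair did not keep a fixed ratio. On chromosome 1, miR-181a-1-3p exceeded miR-181b-1-3p by a geometric mean of 2.43 times at P1, then 3.24 times at P5, 24.0 times at P14 and 8.21 times at P90 (exact permutation P = 6.5e-05, the smallest the 15400 partitions can give, adjusted 5.8e-04). On chromosome 2, miR-181a-2-3p exceeded miR-181b-2-3p 31.0, 29.3, 621 and 140 times (exact permutation P = 5.2e-04, adjusted 0.00117). In both pairs the ratio was highest at P14, where miR-181b-1-3p was counted 10 to 64 times and miR-181b-2-3p 2 to 6 times. Libraries of that age also differed in how levels went with GC content. This was read over 294 miRNAs with a mean level of at least 10 CPM, and both miR-181b passengers lay below that level. Log2 levels rose by 0.365 to 0.549 per 10 percentage points of GC at P14, against -0.541 to -0.320 at P90 and -0.041 to 0.052 at P1 and P5. The GC content of miR-181b-1-3p was 38.1%, that of miR-181b-2-3p 36.4%. With the GC trend removed, the log2FC of P14 versus P5 was -1.81 for miR-181b-1-3p (edgeR Padj = 0.00351), -2.43 for miR-181b-2-3p (Padj = 0.00730) and 1.08 for miR-181a-2-3p (Padj = 1.2e-05). For miR-181a-1-3p it was 0.26 (edgeR Padj = 0.337). The ratios themselves were not recomputed with the trend removed.

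The passengers of chromosome 8 were low in the adult, as their guides were. MiR-181c-3p was at 9.80, 9.51 and 8.098 normalized CPM at P1, 9.13, 12.6 and 12.4 at P5, 9.28, 12.05 and 8.35 at P14 and 0.773, 1.33 and 1.08 at P90. Every P90 library lay below every younger one. The log2FC was -3.10 for P90 versus P1 (SE 0.27, edgeR Padj = 3.3e-08) and -3.21 for P90 versus P14 (SE 0.27, Padj = 3.0e-08), from -5.36 to -1.21 and from -5.47 to -1.64 under the 4 scalings, and for P14 versus P5 it was -0.20 (Padj = 0.505), or -0.71 (Padj = 0.0189) with the GC trend removed.

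MiR-181d-3p was close to the detection limit. It was counted 49, 11 and 18 times at P1, 8, 25 and 14 times at P5, 11, 14 and 35 times at P14 and 2, 0 and 0 times at P90. At P90 all libraries were thus at or under the floor of 3 counts per library, which a count of 0 allows. That floor was set for a count of 0, while replicate 1 of P90 had 2 counts. With TMM factors the mean at P1 was 3.37 times the floor of P90 and the mean at P14 3.19 times, and these values served as bounds. They leave out the spread at P1 and P14. Replicate 2 of P1 was at 0.254 normalized CPM, near the floor of 0.196. With RLE factors these bounds were 2.70 and 2.43. Each TMM bound rested on 1 library, being 1.74 without replicate 1 of P1 and 1.65 without replicate 3 of P14. With upper-quartile factors neither remained, as the means of P1 and P14 were 0.940 and 1.07 times the floor. Both differences passed the test (edgeR Padj = 0.00986 and 0.0137), but the first was lost without replicate 1 of P1 (Padj = 0.0589) and the second without replicate 3 of P14 (Padj = 0.0702) or replicates 2 or 3 of P90 (Padj = 0.0614 and 0.0508). Both were lost with upper-quartile factors (Padj = 0.163 and 0.137), and the second with the GC trend removed (Padj = 0.0880). A floor of this kind covers the counting of reads at most and not the spread between libraries, and the counts carry no molecular identifiers. The ratio of miR-181c-3p to miR-181d-3p did not pass the test (exact permutation P = 0.783).

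**Figure D3:**
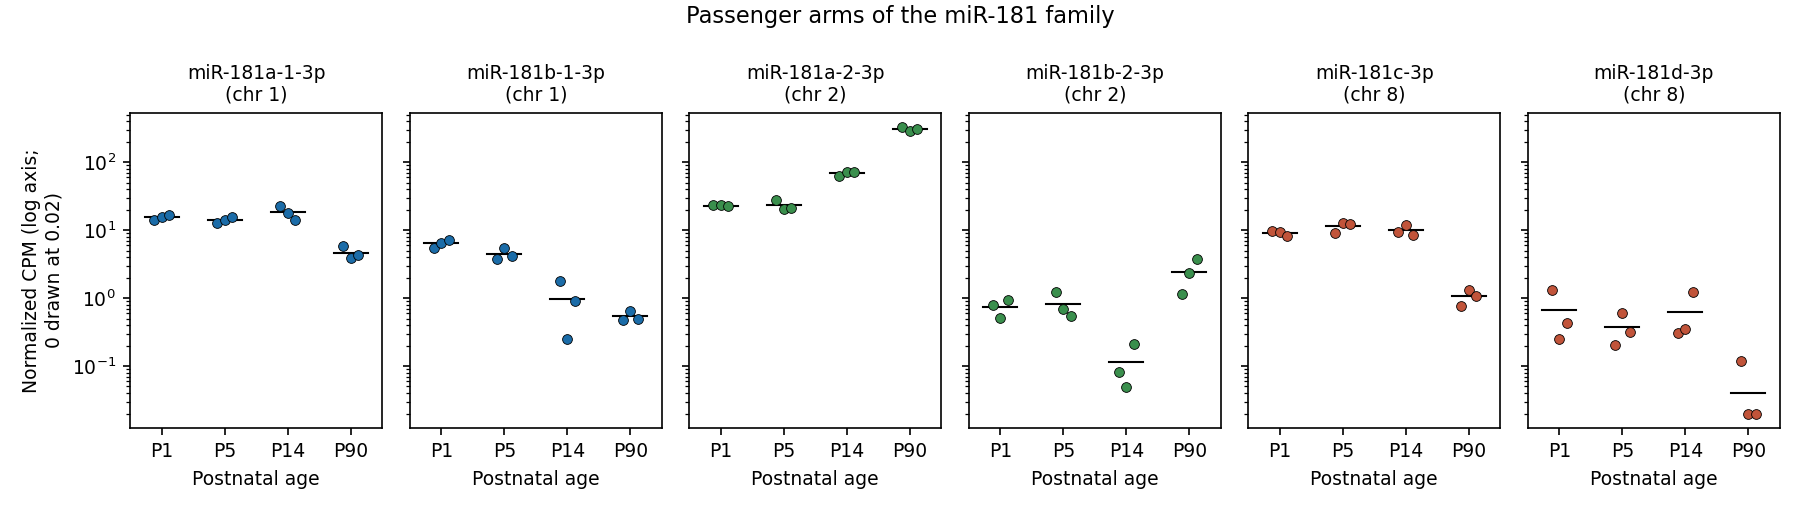
Normalized CPM (log axis) of the 6 passenger arms in each library by postnatal age, with 1 point per library, a bar at the mean of 3 and libraries without a count drawn at the bottom. The chromosome 2 arm miR-181a-2-3p rises from a mean of 22.9 at P1 to 306 at P90, while the chromosome 1 and chromosome 8 arms are lower at P90 than at P1; under upper-quartile factors miR-181a-1-3p is not lower, at a log2FC of 0.17.

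By level, the order of the passengers at P1 was miR-181a-2-3p at 22.9 ± 0.292 normalized CPM (SD, n = 3), miR-181a-1-3p at 15.5 ± 1.41, miR-181c-3p at 9.13 ± 0.909, miR-181b-1-3p at 6.39 ± 0.921, miR-181b-2-3p at 0.752 ± 0.226 and miR-181d-3p at 0.660 ± 0.559. The last 2 overlapped and the others did not. At P90 it was miR-181a-2-3p at 306 ± 21.0, miR-181a-1-3p at 4.69 ± 1.05, miR-181b-2-3p at 2.40 ± 1.31, miR-181c-3p at 1.06 ± 0.277 and miR-181b-1-3p at 0.537 ± 0.0866, with miR-181d-3p under the floor. MiR-181b-2-3p and miR-181c-3p overlapped there. The guides kept 1 order, miR-181a-5p, miR-181b-5p, miR-181c-5p and miR-181d-5p, in 12 of 12 libraries.

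The balance of the arms was compared over all miRNA names with enough counts on both, with the counts of 2 loci summed per arm. For miR-181a the log2 ratio of guide to passenger was 5.41 ± 0.173 (SD, n = 3) at P1, then 5.58 ± 0.325 at P5, 5.16 ± 0.0935 at P14 and 2.74 ± 0.0221 at P90. In counts, the passengers made up 2.33%, 2.03% and 2.56% of miR-181a at P1 and 13.0%, 12.9% and 13.2% at P90. The P90 libraries lay apart from all others and close to each other. The P90 minus P1 difference was -2.67 (SE 0.16, limma Padj = 1.4e-08 over 238 names). Between the 4 ages 60.9% of all names differed, and for P90 versus P1 41.6% did, 21.4% with a higher and 20.2% with a lower ratio. The 2 names of the family called for P90 versus P1 were miR-181a and miR-181b, and they went in opposite directions.

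For miR-181b the log2 ratio was 6.22 ± 0.207 at P1, then 6.61 ± 0.341 at P5, 9.39 ± 1.35 at P14 and 7.85 ± 0.687 at P90. Its P90 minus P1 difference was 1.63 (SE 0.54, limma Padj = 0.0255), with the passengers at 1.33% ± 0.195 of the miR-181b counts at P1 and 0.456% ± 0.188 at P90. This call was lost without replicate 1, 2 or 3 of P1 (Padj = 0.0520, 0.0577 and 0.0805), without replicate 1 of P90 (Padj = 0.0879) and when the variance was fitted without a trend (Padj = 0.0501). For miR-181c the difference was 0.69 (SE 0.27, limma Padj = 0.0567), and it passed the test with replicate number as a block (Padj = 0.0442), with a minimum of 50 counts per arm (Padj = 0.0426), without replicate 2 of P14 (Padj = 0.0316) and without replicate 2 of P90 (Padj = 0.0274). For miR-181d it was 0.48 (SE 0.87, limma Padj = 0.720). Passengers of the whole family held 2.29% ± 0.206 of its counts at P1, then 2.13% ± 0.334 at P5, 2.48% ± 0.130 at P14 and 10.3% ± 0.0405 at P90, and miR-181a-2-3p alone held 97.2% ± 0.258 of the passenger counts at P90.

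**Figure D4:**
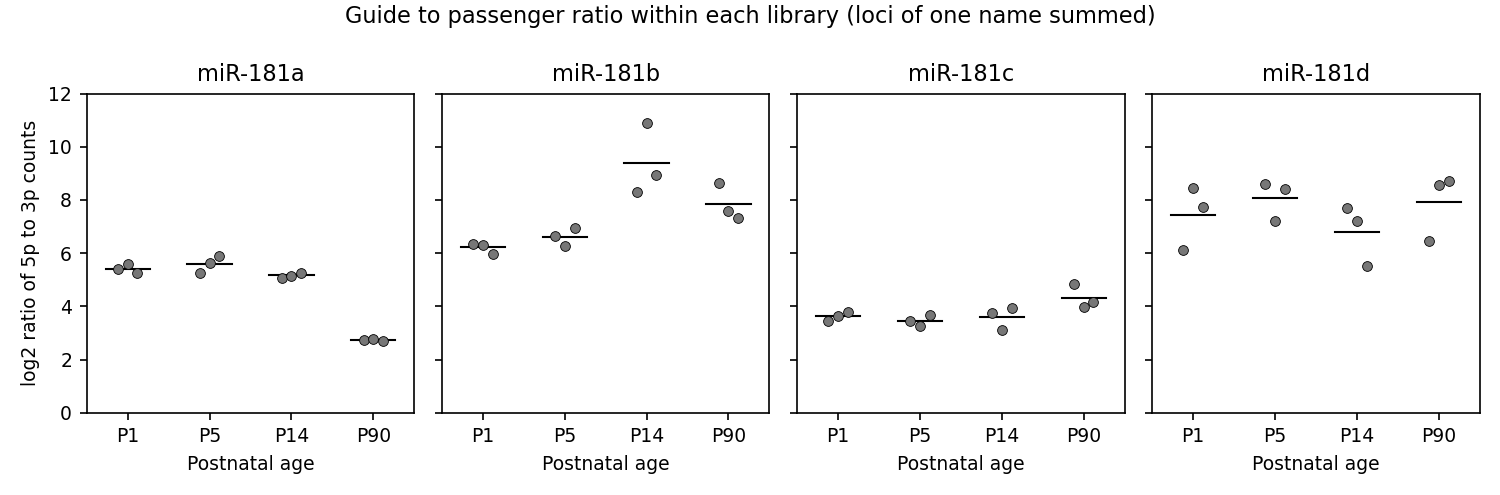
Log2 ratio of guide to passenger counts for the 4 names of the family by postnatal age, with the loci of a name summed, 1 point per library and a bar at the mean of 3. MiR-181a falls from a mean of 5.41 at P1 to 2.74 at P90, miR-181b reaches 9.39 at P14, and miR-181d, whose passenger is counted 0 to 49 times, is spread widely.

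The 4 scalings moved all members of P90 versus P1 up or down together. Library totals turned miR-181a-5p, miR-181b-5p and miR-181b-2-3p to negative values of -1.93, -2.01 and -0.68, and upper-quartile factors turned miR-181a-1-3p to 0.17. Relative to the median of all miRNAs under the same scaling, the members kept their places, as they must when all values shift nearly alike. MiR-181b-2-3p was 2.29 to 2.38 above that median, miR-181d-5p was at -2.12 to -2.07, miR-181b-1-3p at -2.84 to -2.83 and miR-181c-3p at -2.39 to -2.38. For P90 versus P14 miR-181a-5p was at -0.06 to -0.01 relative to the median, whereas miR-181b-5p was 0.66 to 0.72 above it. The value plotted for miR-181d-3p is a fitted one, from libraries at the floor, and is no bound.

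**Figure D5:**
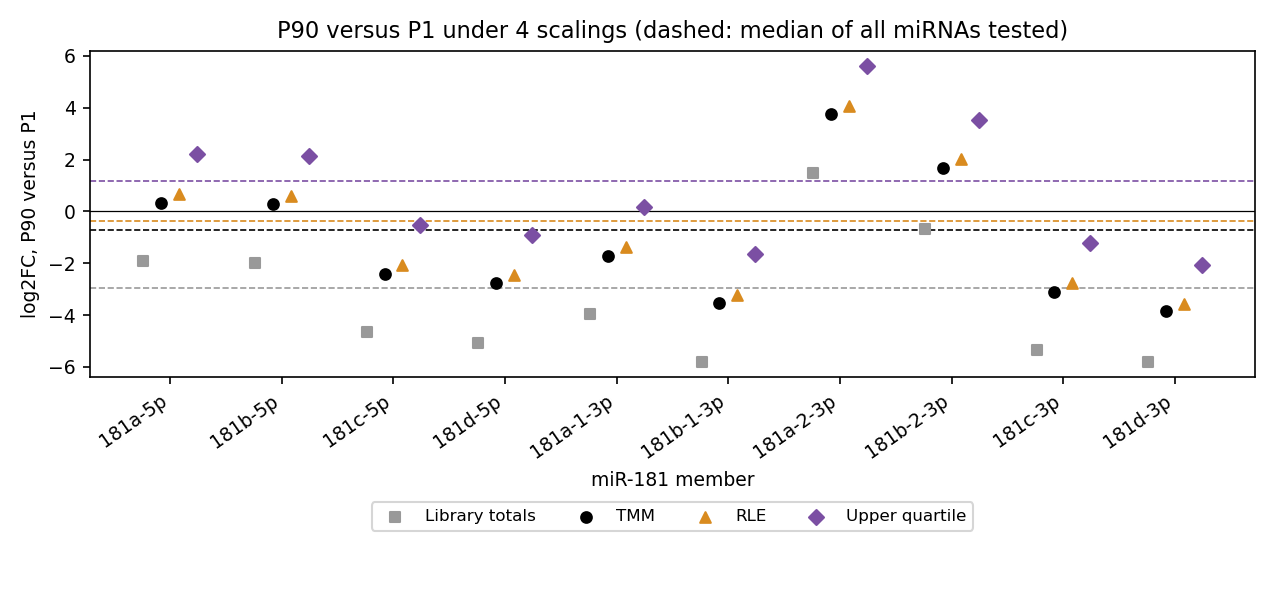
Log2FC of P90 versus P1 for the 10 members under library totals, TMM, RLE and upper-quartile factors (1 symbol each), with dashed lines at the median of all miRNAs tested under the same scaling. The medians lie at -2.97, -0.72, -0.37 and 1.18; miR-181a-2-3p is above 0 under all 4, miR-181a-5p, miR-181b-5p and miR-181b-2-3p are below 0 under library totals, and miR-181a-1-3p is above 0 under upper-quartile factors.

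Among 203 miRNAs outside the family with a mean of at least 100 normalized CPM, those with a profile over the 12 libraries most like that of miR-181a-5p were miR-423-3p, miR-125b-5p and miR-125a-5p, at root mean square log2 differences of 0.123, 0.125 and 0.170, where the median over all 203 was 1.18. MiR-181b-5p was at 0.336 from miR-181a-5p and would have ranked 20. For miR-181c-5p they were miR-652-3p, miR-532-5p and miR-214-3p, at 0.272, 0.341 and 0.386, and miR-181d-5p was at 0.349. The guides of chromosome 8 were thus closer to each other than to miR-181a-5p, from which miR-181c-5p was 1.13 away.

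Markers of muscle and of other cells were read in the same libraries. The 7 muscle miRNAs held 262953 to 304186 CPM of the unscaled counts at P1 and 559098 to 586318 at P90, most of it miR-1a-3p. By edgeR 3 of the 7 were higher and 3 lower, among the latter miR-206-3p at a log2FC of -3.78. The 8 miRNAs of blood and immune cells summed to 599 to 791 normalized CPM at P1 and 899 to 1079 at P90, with 4 of 8 higher and 2 lower by edgeR, but to 876 to 1345 and 222 to 414 CPM of the unscaled counts, so that the direction of their sum depended on the scaling. MiR-155-5p, an miRNA of activated lymphocytes, was at 9.80 normalized CPM at P1 and 82.0 at P90, while the haematopoietic miR-142a-3p was at 28.8 and 11.3. Both endothelial miRNAs were higher at P90, with sums of 3353 to 4367 and 9661 to 12990 normalized CPM, but 5704 to 6380 and 3208 to 4525 CPM unscaled. Both smooth muscle miRNAs were also higher, with sums of 16760 to 19740 and 57060 to 73287 normalized CPM, but 26274 to 30223 and 18096 to 24214 CPM unscaled. The 2 neuronal miRNAs, of which 1 was called higher, summed to 88.5 to 174 and 165 to 193 normalized CPM, but 129 to 273 and 47.7 to 64.9 CPM unscaled. In whole muscle, fewer cells of a type and less RNA per cell cannot be told apart, and the part of these cells in the levels of the family was not tested.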

How the data were processed

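Small RNA libraries from mouse quadriceps were grouped by the age in the sample titles. Per the labels and the study's methods, the authors selected reads of 10 to 35 nt with cutadapt 1.18, aligned them to GRCm38 with Bowtie2 2.4.1 and counted them with featureCounts 2.0.1 on miRBase release 22, and DESeq2 1.30.1 was their test. The deposited values are raw counts per mature miRNA, with no normalization. The strand, overlap and multiple-mapping options of the counting are not given in the sources used here, so how the authors assigned reads that fit 2 miR-181 hairpins is unknown. Libraries of an age differed by a chi-square of 155 to 1056 per degree of freedom and were all used.

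Counts were fitted with edgeR 4.0.16 in R 4.3.3 (filterByExpr, TMM factors, 1 mean per age, all 12 libraries, 2-sided quasi-likelihood F-tests, Benjamini-Hochberg over 809 miRNAs, Padj under 0.05 as a call). SE were derived from the F statistic. Log2 arm ratios (counts plus 0.5, both arms at a mean of at least 10 counts, loci of a name summed) were tested with limma 3.58.1. Log2 ratios of 2 members were tested by exact permutation of libraries over ages (statistic, the sum of squares between ages), with Python 3.11.15. The scripts were tested on simulated data. The floor was 3 counts per library.

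Alternatives were RLE, library-total and upper-quartile scaling, no filter, a filter of 10 CPM, DESeq2 1.42.0, only the ages compared, a replicate block, removal of a linear GC trend (mature GC known for 688 of the 809), other pseudocounts and minimums, and each library left out. The text names every member, the cell markers, and for miR-181a-5p and miR-181c-5p the 3 nearest profiles at 100 normalized CPM or more. Members, lists and ratios were chosen with earlier results of these data known. Sequences and positions came from RefSeq (GRCm38.p6), and host genes from GENCODE vM39, whose coordinates were not used.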

Additional observations from a re-analysis of the deposited data

How the results depend on the processing

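The counts of members called kept within 1.5 times of the main counts in all settings, and without 1 library they were 8 to 9 between the 4 ages, 0 for P5 versus P1, 5 for P14 versus P5, 7 to 9 from P14 to P90 and 7 to 10 from P1 to P90. Of the miR-181 names, 2 had a changed arm ratio for P90 versus P1, which was 1 without a variance trend and 1 to 3 without 1 library. Same-numbered libraries did not deviate together (18 correlations of -0.097 to 0.124). For 3 of 12 libraries, the mean correlation was higher with same-numbered libraries than with differently numbered ones of other ages. With the replicate block, 8 members were called between the ages, 5 for P14 versus P5, and 8 for each P90 comparison; the ratios miR-181c-5p/miR-181d-5p (0.41) and miR-181b-1-3p/miR-181b-2-3p (-5.05) missed the threshold, and P5 versus P1 calls of all miRNAs went from 36 to 15, or 17 with the GC trend removed as well. Those P5 versus P1 calls were also 62 with no filter, 91 with only those ages, 78 with DESeq2, and 10, 11 and 8 when replicate 2 of P1, replicate 2 of P5 or replicate 3 of P5 was left out. With the 10 CPM filter 364 miRNAs were tested, and 345 were called between the ages, 238 for P14 versus P5, 308 from P14 to P90 and 317 from P1 to P90. Of the calls over all miRNAs, higher ones made up 38.0% for P90 versus P1 (5.27% with library totals, 67.1% with upper-quartile factors), 37.9% for P90 versus P14 (2.79% and 70.6%), 40.7% for P14 versus P5 (53.4% and 55.6%) and 61.1% for P5 versus P1 (7.50% with library totals, 46.8% with no filter, 72.2% with the 10 CPM filter, 40.7% with only those ages). Log2FC that changed sign were as follows. With library totals they were, for P5 versus P1, -0.17 (miR-181a-5p), -0.14 (miR-181c-5p), -0.24 (miR-181d-5p), -0.28 (miR-181a-2-3p) and -0.17 (miR-181b-2-3p); for P14 versus P5, 0.17 (miR-181c-5p) and 0.095 (miR-181c-3p); for P90 versus P14, -2.11 (miR-181b-5p) and -0.082 (miR-181a-2-3p); for P90 versus P1, -1.93 (miR-181a-5p), -2.01 (miR-181b-5p) and -0.68 (miR-181b-2-3p). With upper-quartile factors they were 0.20 (miR-181c-5p) and 0.087 (miR-181c-3p) for P14 versus P5, 0.98 (miR-181a-5p) and 0.74 (miR-181b-1-3p) for P90 versus P14, and 0.17 (miR-181a-1-3p) for P90 versus P1. MiR-181c-5p for P14 versus P5 was 0.021 with the 10 CPM filter, 0.0076 after GC correction and 0.015 with the block as well, where miR-181d-3p was -0.083. MiR-181b-5p for P90 versus P14 was -0.016 after GC correction and -0.020 with the block as well, and for P5 versus P1 0.0018 with RLE factors or DESeq2. MiR-181a-2-3p for P5 versus P1 was -0.0048 with no filter and -0.033 with only those ages. At a pseudocount of 3 the P90 minus P1 arm ratio of miR-181d was -1.38 and the ratio miR-181c-3p/miR-181d-3p -1.48. Without 1 library, P5 versus P1 ranged from -0.011 to 0.24 (miR-181a-5p), -0.13 to 0.021 (miR-181b-5p), -0.038 to 0.30 (miR-181c-5p), -0.072 to 0.14 (miR-181d-5p), -0.14 to 0.093 (miR-181a-2-3p), -0.28 to 0.35 (miR-181b-2-3p) and -1.34 to 0.11 (miR-181d-3p), P14 versus P5 from -0.27 to 0.067 (miR-181c-5p) and -0.24 to 1.22 (miR-181d-3p), and the arm ratio of miR-181d from -0.17 to 1.199. The causes were not tested. The bounds of miR-181d-3p and the sum of the family were recomputed after seeing the data. Depth limits miR-181b-2-3p at P14 (2 to 6 counts) and miR-181d-3p at P90 (0 to 2).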
